A study of Mus musculus with 9 samples.

Results

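The cytosolic ribosomal protein genes are the genes of the proteins that, with ribosomal RNA, make up the small (40S) and large (60S) subunits of the ribosome outside mitochondria. They were taken here as the probe sets whose platform annotation gave exactly 1 gene symbol made of Rpl or Rps and a number, with Rplp0, Rplp2 and Rpsa. Of 45037 probe sets, 34945 had 1 symbol and 101 met this rule, and these named 47 of the 18193 genes so named, 24 of the 60S and 23 of the 40S subunit. A further 110 probe sets named a ribosomal protein gene together with other symbols and were left out, as was Rps19bp1, which encodes a binding partner of a ribosomal protein. Rplp1, Rpl3, Rpl5, Rpl10, Rpl32, Rpl36a and Rps27a had no probe set that met the rule and are not analysed here.

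RNA came from whole cochleae of male C57BL/6 mice, an inbred strain known for hearing loss that begins early in adult life, and each sample pooled 4 cochleae of 2 mice. The 3 young control samples (YC) were from mice 4 months old, and the 3 older control samples (MC) from mice 15 months old, both on 84 kcal of control diet per week. The 3 calorie-restricted samples (CR) were also from mice 15 months old, which had received 62 kcal per week of a restricted diet from 2 months of age, a reduction of 26%. Mice were housed singly. The design asked what age changes (MC against YC) and what restriction changes (CR against MC), so both comparisons share the MC samples. Each sample was hybridised to 1 array, so every value below rests on 3 arrays per group, and this number limits the precision.

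A ribosome holds 1 copy of most of these proteins, and cells make them in step with each other. Much of that control is on translation: the messenger RNAs of ribosomal proteins begin with a run of pyrimidines, the terminal oligopyrimidine tract, through which the TOR pathway adjusts their use by ribosomes to nutrient supply. Dietary restriction is known to lower TOR signalling in many tissues. An array measures messenger RNA level, not its translation. In bulk samples, fewer cells of a type and less RNA per cell cannot be told apart.

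RefSeq promoters (GRCm38.p6, 250 bases before to 50 after the annotated start) were matched for 41 of the 47 genes. They are given for what they share, which the choice of members did not use. CCGGAAG, a core of ETS-factor sites, stood on either strand in 21 of 41 windows (51.2%) against 9.14% of all 27025 promoters. A core of Sp1 sites, GGGCGG, was in 22 (53.7%) against 35.9%. TATAAA was in 5 windows (12.2%) against 14.2%, and CAGCTG, an E-box of a kind bound by muscle factors, in 3 (7.32%) against 16.1%. For pyrimidine runs, CTTTCC was searched together with the run CTTTTC, and either was in 24 windows (58.5%) against 42.1% on either strand. On the gene's own strand, from 30 bases before the start to 50 after it, they were in 14 (34.1%) against 6.36%. A match describes letters and is not a known binding site. CTTTCC and CTTTTC cover only some forms of pyrimidine run. A promoter without a match can thus still hold such a run, as Rps18 below does at its start. Below are 7 examples, from 80 bases before the start to 20 from it, 5′ to 3′ on the gene's strand, with matches in capitals.
Rpl38, chr11:114668500-114668599, plus strand, with the Sp1 and ETS cores and the pyrimidine run at the start: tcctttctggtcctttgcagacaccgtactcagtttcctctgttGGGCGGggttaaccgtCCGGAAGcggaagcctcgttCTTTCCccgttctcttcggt
Rpl35, chr2:39005112-39005211, minus strand, where the Sp1 core, read on the other strand, overlaps the pyrimidine run: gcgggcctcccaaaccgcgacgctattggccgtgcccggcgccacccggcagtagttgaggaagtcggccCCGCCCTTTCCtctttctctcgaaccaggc
Rps27, chr3:90213629-90213728, minus strand, with the pyrimidine run: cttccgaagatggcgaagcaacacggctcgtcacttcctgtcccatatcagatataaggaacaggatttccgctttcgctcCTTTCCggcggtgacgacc
Rps18, chr17:33955646-33955745, minus strand, with the ETS core: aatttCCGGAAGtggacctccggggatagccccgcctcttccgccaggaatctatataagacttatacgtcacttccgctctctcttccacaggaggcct
Rpl39, chrX:37085203-37085302, minus strand, with none of the motifs: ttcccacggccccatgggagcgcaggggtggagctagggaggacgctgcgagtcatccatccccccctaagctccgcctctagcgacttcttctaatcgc
Rps27l, the divergent copy of Rps27, chr9:66946006-66946105, plus strand, with the Sp1 and ETS cores: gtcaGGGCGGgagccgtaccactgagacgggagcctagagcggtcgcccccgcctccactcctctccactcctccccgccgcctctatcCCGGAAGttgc
Rpl3l, the striated-muscle copy of Rpl3, chr17:24727746-24727845, plus strand, with the E-box: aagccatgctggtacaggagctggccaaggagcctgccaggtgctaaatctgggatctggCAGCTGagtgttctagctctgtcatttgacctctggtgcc

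Signals were compared as log2(signal + 16) after quantile normalization, and only probe sets whose mean reached the 40th percentile were tested (27022 of 45037). Of the 101 member probe sets 87 passed, for 44 genes, and 73 of these were in the top 10% of probe sets by mean signal. The 14 that did not pass included the only probe sets of Rpl14, Rps16 and Rpl39l, a copy of Rpl39 known from testis. Rpl39l lay just under the limit, with normalized log2 signals of 9.38, 7.74 and 9.34 in YC, 7.0, 8.85 and 9.78 in MC, and 9.32, 8.92 and 9.60 in CR. These groups overlapped.

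The arrays differed in ways that touch the members. The deposited signals had a nearly constant trimmed mean per array (1493.56 to 1496.42), but the median signal fell into 4 arrays with low values (526.8 to 626.6, YC1 and all CR) and 5 with high values (842.4 to 1103.9, YC2, YC3 and all MC). No such class held both CR and MC arrays, so this property of the arrays and restriction cannot be told apart. YC2 and MC3, the arrays with the highest medians, held the lowest value of 53 of the 87 members (60.9%), against 42.1% of all tested probe sets. Cochlear genes were present: 28 of the 32 fixed markers were on the array and 21 passed the filter, including Coch and Otos, both abundant in the cochlear lateral wall. Markers of other tissues moved with restriction. Of 27 skeletal muscle markers tested 27 were lower in CR than in MC, 18 of them past the threshold, while 18 of 19 brain markers and 15 of 21 cochlear markers were higher, none past it. All 11 erythroid, 12 of 14 neutrophil, 13 of 18 cell cycle, 8 of 13 macrophage and 4 of 8 B cell markers were lower, none past it. The part of these differences in the values of the members was not tested, except where values are given.

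Few ribosomal protein genes differed by 2-fold between 4 and 15 months. None of the 87 probe sets passed the threshold (limma with Benjamini-Hochberg adjustment over all 27022 tested, adjusted p under 0.05), nor did any of all those tested (0%), and at an unadjusted p under 0.05 there were 2 members against 3.39% of all. The 95% interval of the change lay within 2-fold for 73 of 87 members (83.9%), against 30.6% of all tested probe sets. That count depends on the quantile normalization, which gives every array the same set of values. It was 46 (52.9%, against 34.3%) with the table as deposited and 3 (3.45%, against 14.2%) with arrays centred on their medians. The intervals given below for single genes are those after quantile normalization. Past 2-fold were 2 members, Rps27 and Rpl41, against 6.65% of all, and the MC and YC arrays did not overlap for 2 (2.30%) against 5.88%. The median log2 change of the members was -0.06, beside 0.02 for all tested. By sign, 31 were higher and 56 lower in MC, but without YC1, or with the array class as a term, 45 were higher, so no direction of the family is given. That term is estimated from YC1 against YC2 and YC3 alone, since no other group holds both classes, so it rests on 1 array.

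Under restriction most members again stayed within 2-fold of the older controls after quantile normalization. None of the 87 passed the threshold in CR against MC, where 0.0925% of all tested did, and 8 had an unadjusted p under 0.05, against 18.5% of all. The interval lay within 2-fold for 65 members (74.7%), against 22.8% of all tested, but for 27 (31.0%, against 20.7%) with the table as deposited and for 2 (2.30%, against 6.75%) with arrays centred on their medians. Past 2-fold were 8 (21.3% of all), a count that was 8 (25.8% of all) with the table as deposited and 40 (35.3% of all) with centred arrays. The CR and MC arrays did not overlap for 18 members (20.7%) against 37.8% of all, 12 of them higher in CR (19.5% of all) and 6 lower (18.2%). With the table as deposited 32 of 87 did not overlap, against 43.9% of all, and with centred arrays 74 of 87, against 56.8%. Whether members separated less than all tested thus depended on the scaling. After quantile normalization the median log2 change of the members was 0.12, beside 0.08 for all tested. In this fit 61 members were higher and 26 lower, whereas with the array class as a term 29 were higher (median -0.13) and with the array median as a covariate 28 were. The class term again rests on YC1. The table as deposited gave 69 higher (median 0.26), and arrays centred on their medians gave 79 (median 0.88, against 0.58 for all tested), so again no direction of the family is given. After quantile normalization part of the narrow intervals goes with signal: the 66 members of mean log2 signal 13 or higher had a median SE of 0.19 and the 21 dimmer ones 0.41, against 0.43 for all tested. This split was not made with the other scalings. With the table as deposited, the SE of a bright Rps10 probe set (1416719_a_at) was 0.40 instead of 0.21. Those of the dimmer Rpl39 and Rpl3l were 0.32 and 0.37 instead of 0.41 and 0.39.

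**Figure D1:**
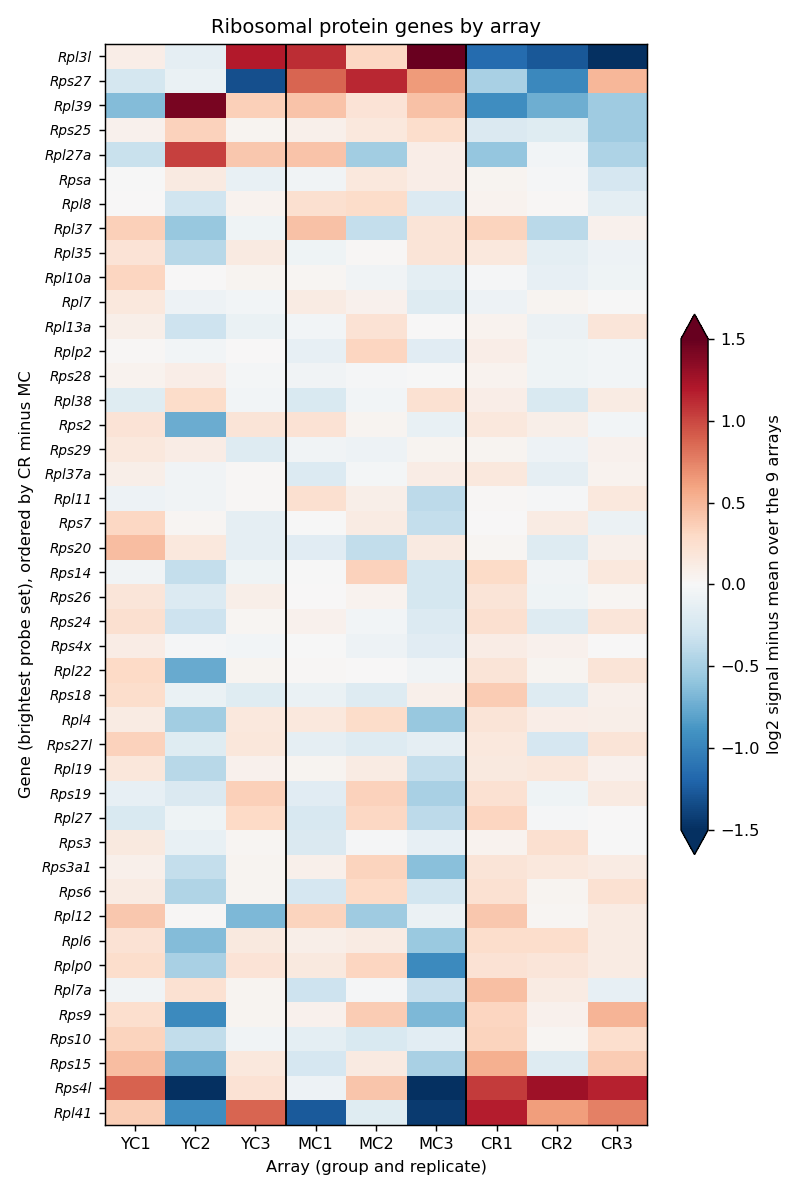
Heat map of normalized log2 signal minus the gene's mean over the 9 arrays (colour) for the brightest probe set of 44 ribosomal protein genes (rows, ordered by the difference CR minus MC), with arrays of young controls (YC), older controls (MC) and restricted mice (CR) in columns. Most rows are pale, YC2 and MC3 are the bluest columns through the lower rows, and Rpl3l, Rps27, Rpl39, Rps4l and Rpl41 at the ends hold the strong colours.

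The map of levels by array shows the same in single arrays: most genes stayed close to their own mean after this normalization, and the wide excursions belonged to a few rows. The median SD of the members within a group was 0.31 in YC, 0.24 in MC and 0.16 in CR, against 0.57, 0.44 and 0.21 over all tested probe sets. With the table as deposited it was 0.69, 0.27 and 0.21, against 0.62, 0.39 and 0.25. With arrays centred on their medians it was 1.14, 0.35 and 0.30, against 0.74, 0.40 and 0.27. Whether members varied less than all tested thus depended on the scaling. In the restricted against the young control samples, 0 of 87 members passed the threshold (0% of all tested), 3 had an unadjusted p under 0.05 (10.8% of all) and the interval lay within 2-fold for 68 (78.2%) against 24.5%, or for 32 (36.8%) against 23.6% with the table as deposited. The median was 0.08 for the members and 0.08 for all tested. In sign 57 were higher, which fell to 41 without YC2, to 42 without CR1 and to 29 with the array class as a term.

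Members of the 60S subunit come first. The stalk proteins, which bind the elongation factors at the ribosome's factor site, were measured for Rplp0 and Rplp2. Rplp2, with normalized log2 signals of 16.14, 16.08 and 16.13 in YC, 16.01, 16.45 and 15.96 in MC, and 16.23, 16.07 and 16.09 in CR, differed by 0.02 ± 0.16 (log2, SE) between MC and YC and by -0.01 ± 0.16 between CR and MC. Rplp0, often used as a reference gene, was less even. Its values were 15.61, 14.87 and 15.55 in YC, 15.50, 15.67 and 14.40 in MC, and 15.57, 15.54 and 15.47 in CR. YC2 and MC3 were its low arrays, the groups overlapped, and CR minus MC was 0.34 ± 0.31 (interval -0.35 to 1.03).

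Core proteins of the 60S subunit with extra-ribosomal roles had small differences after quantile normalization. Rpl11, which binds Mdm2 when ribosome assembly fails, differed by 0.02 ± 0.18 with age and 0.08 ± 0.18 with restriction. Rpl22 and its paralog Rpl22l1 are known to affect each other's levels. The brightest Rpl22 probe set gave 0.13 ± 0.24 and 0.15 ± 0.24 for the same comparisons, and its 3 probe sets ran from 0.04 to 0.25 and from -0.22 to 0.15. Rpl22l1, which the rule leaves out, gave -0.30 ± 0.26 and 0.61 ± 0.26, with an adjusted limma p of 0.254 for the latter. Rpl38, whose loss in mice causes skeletal patterning and middle-ear defects, differed by -0.03 ± 0.18 and 0.02 ± 0.18. Rpl13a, a target of interferon-dependent phosphorylation, differed by 0.16 ± 0.16 and -0.01 ± 0.16 at its brightest probe set. Its 4 probe sets disagreed in sign, from -0.19 to 0.19 with age and from -0.30 to 0.26 with restriction. Rpl4, at the wall of the peptide exit tunnel, differed by 0.04 ± 0.24 and 0.17 ± 0.24. Except for the restriction interval of Rpl22l1, these intervals lay within 2-fold.

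Probe sets of the same gene disagreed most for Rps24 and Rpl41. Rpl41 encodes a very short, basic peptide of the 60S subunit, and 4 of its probe sets passed. The brightest (1455578_x_at) read 16.43, 15.14 and 16.94 in YC, 14.81, 15.89 and 14.64 in MC, and 17.25, 16.70 and 16.83 in CR. All CR arrays lay above all MC arrays, a difference of 1.82 ± 0.43 (3.52-fold, limma adjusted p = 0.146), while MC minus YC was -1.06 ± 0.43 (adjusted p = 1). The dimmer 1454639_x_at went the other way, with 9.60, 11.03 and 11.00 in YC, 11.10, 11.32 and 11.20 in MC, and 10.08, 9.40 and 9.90 in CR, a difference CR minus MC of -1.41 ± 0.41 (adjusted p = 0.174). Its 4 lowest values were those of YC1 and the CR arrays, the 4 arrays of low median signal, and with that class as a term the difference was 0.00 ± 0.52. The other pair gave 0.39 ± 0.29 and -0.87 ± 0.48. The gene thus had values on both sides of 0, and no direction is given for it. The brightest passed the threshold without YC2 (adjusted p = 0.0258), and so it did without YC2 and MC3 together (0.0402), with array weights (0.00681) and with only CR and MC in the fit (0.0217). Over all alternatives its adjusted p ran from 0.00681 to 0.9996.

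Rpl39, a short protein lining the exit tunnel, had a single probe set, with 11.71, 13.77 and 12.70 in YC, 12.79, 12.55 and 12.79 in MC, and 11.42, 11.63 and 11.82 in CR. All CR arrays lay below all MC arrays, a difference of -1.09 ± 0.41 (limma adjusted p = 0.218), and MC minus YC was -0.02 ± 0.41. YC1 read with the CR arrays, so the 4 arrays of low median signal again held the 4 lowest values. The difference was 0.45 ± 0.50 with the array class as a term and -0.27 ± 0.33 with arrays centred on their medians. It passed the threshold without YC2 (adjusted p = 0.0468), and CR minus YC, -1.10 ± 0.41, did without YC1 (0.0488).

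Rpl3l had the largest difference of the 87 member probe sets under restriction. It replaces Rpl3 in ribosomes of skeletal and heart muscle. Its deposited signals were 3763.4, 2878.6 and 7279.1 in YC, 6332.8, 3948.4 and 7836 in MC, and 1286.5, 1208.7 and 909.1 in CR, or 11.78, 11.55 and 12.87, then 12.79, 11.99 and 13.16, then 10.52, 10.41 and 10.06 as normalized log2 signals. Every CR array lay below every array of the other groups. CR minus MC was -2.31 ± 0.39 (interval -3.18 to -1.45, 4.97-fold, limma adjusted p = 0.0750), CR minus YC was -1.74 ± 0.39 (adjusted p = 0.382) and MC minus YC was 0.58 ± 0.39 (adjusted p = 1), so none passed the threshold. CR minus MC passed without YC1 (limma adjusted p = 0.0448), without YC2 (0.0202), without YC3 (0.0424) and without MC2 (0.0442). It did not pass without MC1 (0.198), MC3 (0.218), CR1 (0.185), CR2 (0.290) or CR3 (0.360). Its sign held in 24 of 24 alternatives, from -2.66 to -1.74. The adjusted p ran from 0.00210 with array weights to 0.9996 with the array class as a term (-1.89 ± 0.71).

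Skeletal muscle markers differed in the same directions as Rpl3l. Of the 28 fixed markers of skeletal muscle, 27 passed the filter, and their median log2 change was -2.18 in CR against MC, -1.65 in CR against YC and 0.42 in MC against YC. The summed linear signal of the 28 after quantile normalization ran from 915705 to 1779120 in YC, from 1292040 to 1881110 in MC and from 374995 to 527257 in CR. Among them Myh2, a fast myosin heavy chain, changed by -4.31 ± 0.43 (adjusted p = 0.0233) and Ckm, muscle creatine kinase, by -2.02 ± 0.30 (adjusted p = 0.0469). Within each array Rpl3l lay from 2.54 to 3.41 log2 units below the median of the markers, 2.54, 3.41 and 2.95 in YC, 2.92, 3.16 and 2.84 in MC, and 3.40, 2.89 and 3.19 in CR. These distances overlapped between groups. The part of muscle content in the difference of Rpl3l was not tested.

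**Figure D2:**
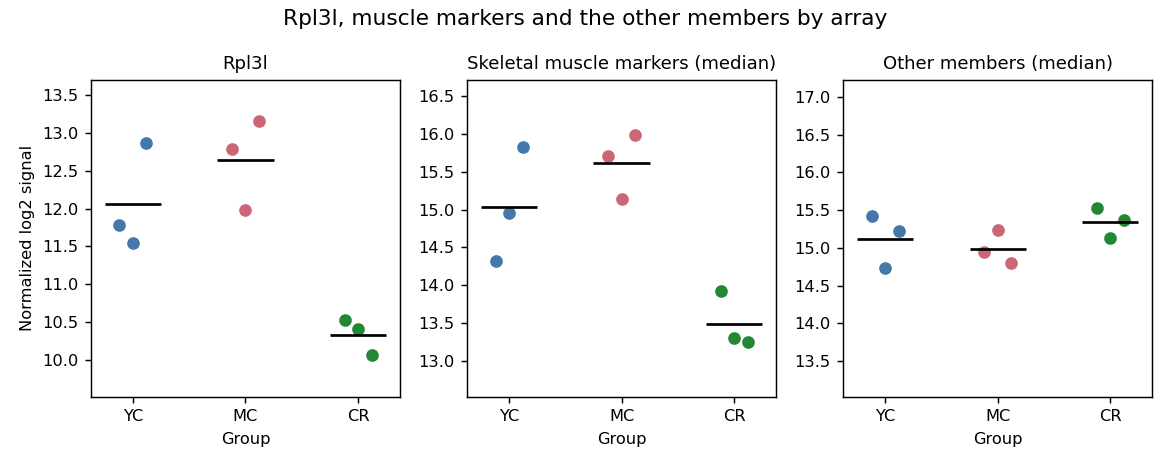
Normalized log2 signal by array (points) with group means (lines) for Rpl3l, the median of the 27 skeletal muscle markers past the filter and the median of the other 86 member probe sets, on panels of equal height but different levels, in young controls (YC), older controls (MC) and restricted mice (CR). Rpl3l and the muscle markers are lowest in all 3 CR arrays, and the median of the other members stays within less than 1 log2 unit across the 9 arrays.

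Of the 22 genes of the 40S subunit that passed the filter, by their brightest probe set, 19 had higher and 3 lower point estimates in CR than in MC, beside 12 and 10 of 22 for the 60S subunit. Over probe sets the medians were 0.15 for 46 of the 40S and 0.04 for 41 of the 60S, and the difference between subunits was not tested. The signs of the family flip with the array class, as given above. With age the medians were -0.09 and -0.02.

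Rps6, the substrate of the S6 kinases at the end of the TOR pathway, read 11.31, 10.72 and 11.22 in YC, 10.93, 11.48 and 10.90 in MC, and 11.41, 11.21 and 11.41 in CR, with overlapping groups. Its change was 0.02 ± 0.28 with age and 0.24 ± 0.28 with restriction, and its phosphorylation is not measured by an array. Rpsa, also known as the laminin receptor, differed by 0.06 ± 0.15 and -0.14 ± 0.15. Rps19, which is mutated in Diamond-Blackfan anaemia, differed by -0.11 ± 0.23 and 0.20 ± 0.23. Rps4x, an X-linked gene, differed by -0.10 ± 0.13 and 0.15 ± 0.13, errors as narrow as those of Rps28 (-0.07 ± 0.13 and 0.01 ± 0.13). Rps29 differed by -0.05 ± 0.14 and 0.04 ± 0.14, and Rps18, a common reference gene, by -0.07 ± 0.18 and 0.16 ± 0.18. Each of these intervals lay within 2-fold in both comparisons.

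Rps27, a zinc-finger protein of the 40S subunit, was the member with the largest positive age difference. Rps27 had 1 probe set, a dim one with a mean log2 signal of 10.84, beside a median of 15.16 over the members past the filter. It read 10.57, 10.74 and 9.52 in YC, 11.71, 11.97 and 11.47 in MC, and 10.35, 9.87 and 11.33 in CR. All MC arrays were above all YC and all CR arrays, and CR overlapped YC. MC minus YC was 1.44 ± 0.44 (2.72-fold, limma adjusted p = 1) and CR minus MC was -1.20 ± 0.44 (2.30-fold, adjusted p = 0.210), neither past the threshold. The first kept its sign in 25 of 25 alternatives (1.07 to 1.93) and the second in 24 of 24 (-1.65 to -0.70), and both rest on the same MC arrays. Its divergent copy Rps27l, a target of p53, differed by -0.26 ± 0.20 and 0.18 ± 0.20 at its brightest probe set and had the same signs in all 3 of its probe sets.

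Rps24 had 6 probe sets past the filter, from -2.07 to 1.3 in CR against MC. Its 4 bright probe sets lay between 0.13 ± 0.18 and 0.48 ± 0.23. The extremes were both dim: 1436500_at read 9.76, 11.10 and 9.96 in YC, 10.31, 9.99 and 10.69 in MC, and 9.02, 9.23 and 6.54 in CR, a difference of -2.07 ± 0.69 (limma adjusted p = 0.193) that was -1.19 without CR3, with CR below all other arrays. 1455195_at read 10.42, 10.37 and 9.01 in YC, 10.32, 9.58 and 7.04 in MC, and 10.28, 10.21 and 10.34 in CR, a difference of 1.3 ± 0.75 that was 0.34 without MC3. Rps10 and Rpl7 were next in disagreement, from -0.27 to 0.64 over 5 and from -0.01 to 0.84 over 3 probe sets, but the 0.64 of Rps10 (1439374_x_at) was -0.05 without CR1. In all, 19 genes had several probe sets past the filter, and for 11 of them the sign in CR against MC differed between probe sets.

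Dim probe sets also gave most other wide values. Rps3, a protein of the mRNA entry channel with a role in DNA repair, differed by 0.21 ± 0.14 at its bright probe set and by 0.92 ± 0.30 (limma adjusted p = 0.188) at a dim one, 1455600_at. The latter read 10.65, 10.06 and 10.21 in YC, 9.94, 9.95 and 10.07 in MC, and 10.99, 10.83 and 10.92 in CR, with CR above all other arrays. It passed the threshold with array weights (adjusted p = 0.0240). Rps4l, an autosomal copy of Rps4x, read 10.74, 7.02 and 10.07 in YC, 9.79, 10.27 and 7.81 in MC, and 10.91, 11.14 and 11.01 in CR. Its CR minus MC of 1.73 ± 0.90 (adjusted p = 0.319) turned negative with the array class as a term, and its low values were those of YC2 and MC3. Rps25, needed for some internal ribosome entry sites, read 11.22, 11.51 and 11.20 in YC, 11.23, 11.31 and 11.42 in MC, and 10.94, 10.97 and 10.63 in CR, a difference CR minus MC of -0.47 ± 0.25 (adjusted p = 0.320). CR lay below all other arrays there. Of the 8 probe sets past 2-fold under restriction, 7 had a mean log2 signal below 13. Separate groups were not confined to dim probe sets. After quantile normalization CR and MC did not overlap for 10 of the 66 brighter members (15.2%), all higher in CR. Of the 21 dimmer ones 2 were separate and higher and 6 lower (38.1%), against 37.8% of all tested. The 10 included Rpl7 1426163_x_at (0.84 ± 0.30), Rps10 1438723_a_at (0.39 ± 0.19), Rps7 1435593_x_at (0.39 ± 0.19), Rps4x and the brightest Rpl22 probe set.

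**Figure D3:**
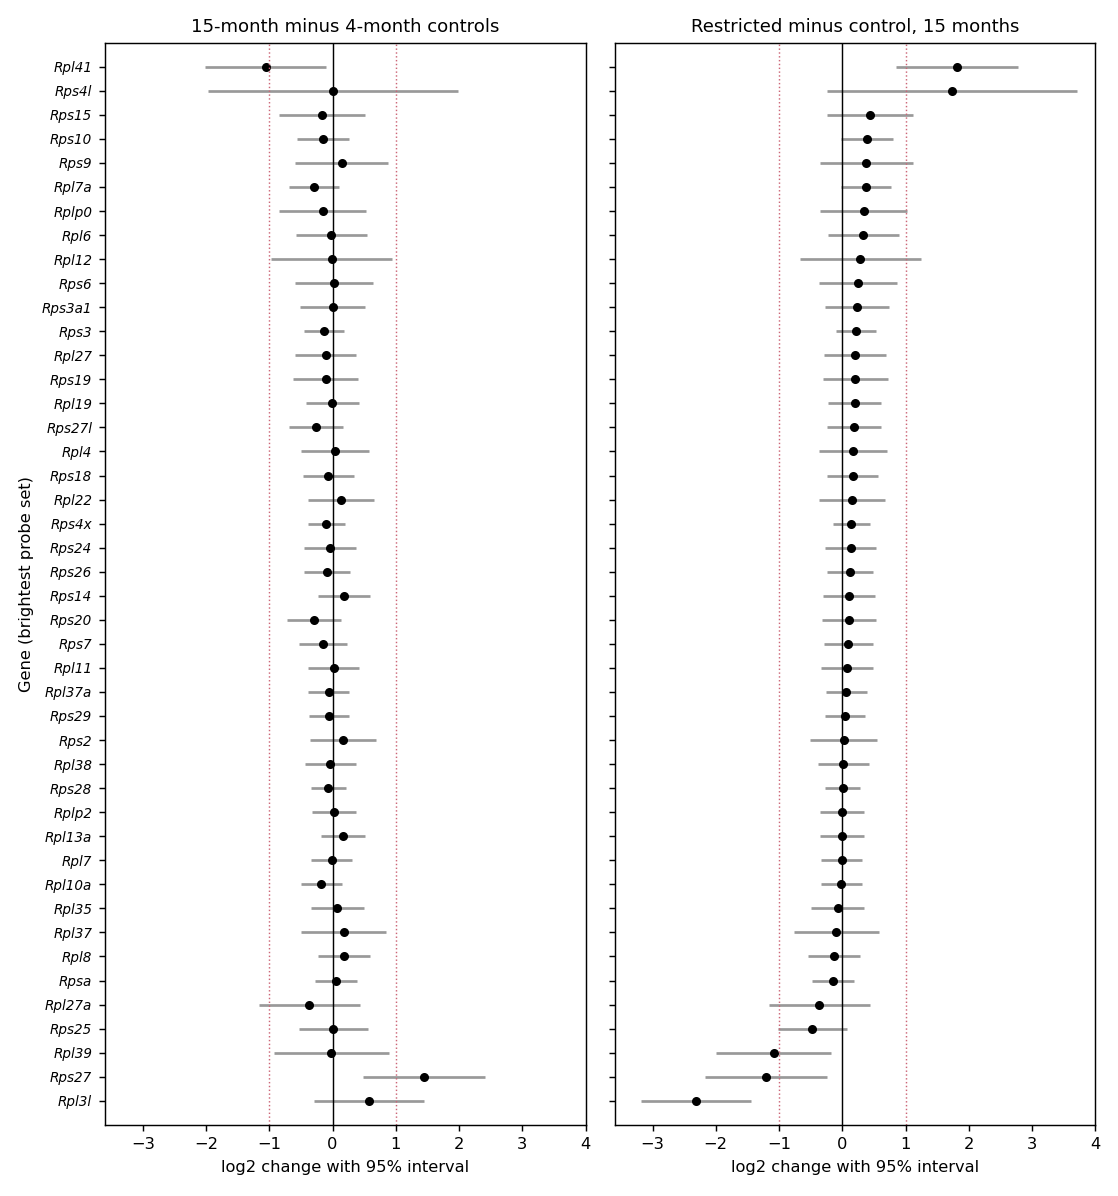
Log2 change with its 95% interval (points and bars) for the brightest probe set of 44 ribosomal protein genes, older minus young controls on the left and restricted minus control mice of 15 months on the right, after quantile normalization, with dotted lines at 2-fold. For 39 genes on the left and 33 on the right the whole interval lies between the dotted lines.

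**Figure D4:**
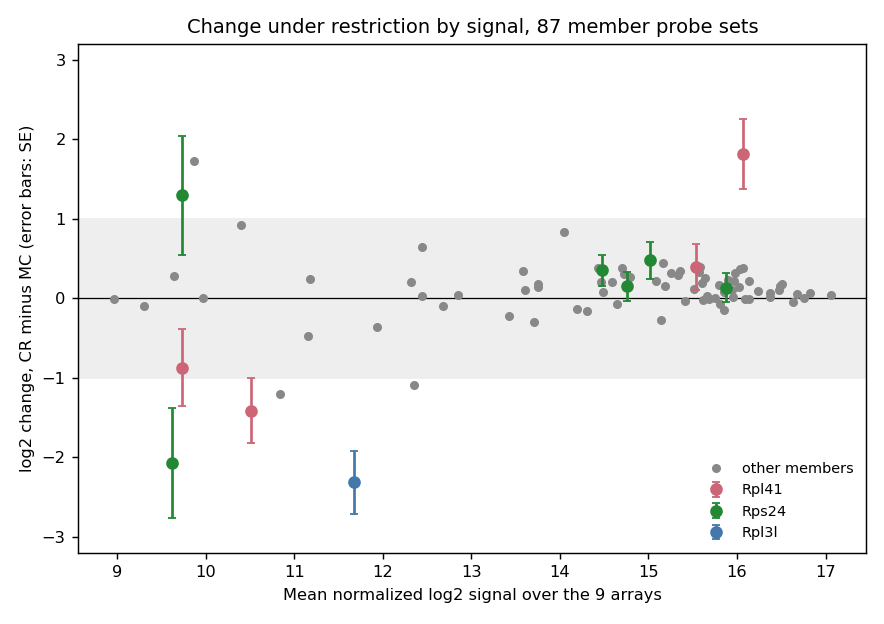
Log2 change CR minus MC of 87 member probe sets (points) against their mean normalized log2 signal, with the probe sets of Rpl41, Rps24 and Rpl3l in colour with their SE and the band within 2-fold in grey. Of the 8 points outside the band 7 have a signal below 13, and the probe sets of Rpl41 and of Rps24 lie on both sides of 0.

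Genes that act with the ribosomal proteins, taken from fixed lists by their brightest probe set, held no gene past the threshold in any comparison. Their counts by sign are after quantile normalization, where 14791 of all 27022 tested probe sets were higher in CR than MC (median 0.08). The lists were not run with other scalings or with the array class as a term, so no direction is given for them. Of 32 initiation factors 25 were higher and 7 lower in CR than MC (median 0.20), with Eif4a2, a helicase that unwinds leader RNA, at 0.44 ± 0.17 and Eif3m, an eIF3 subunit, at 0.72 ± 0.29. Of 10 elongation factors 7 were higher (median 0.05). Eef1a1, which brings aminoacyl-tRNA to the ribosome, gave -0.01 ± 0.26, and its muscle and neuron form Eef1a2 gave -0.64 ± 0.54, which was -0.08 without CR2. Of 21 other transcripts with a terminal oligopyrimidine tract 14 were higher (median 0.20), with Fau, whose product is cut to a 40S protein, at -0.04 ± 0.16. Tpt1, among the brightest probe sets, had deposited signals of 261184, 278247 and 342928 in MC and of 147299, 165737 and 148648 in CR, which do not overlap. Its CR minus MC was -0.93 ± 0.41 with the table as deposited (limma adjusted p = 0.198) and -0.17 ± 0.13 after quantile normalization. Of 43 ribosome biogenesis genes 23 were higher (median 0.08), with nucleolin (Ncl) at 1.23 ± 0.45 and the acetyltransferase Nat10 at -0.90 ± 0.33. Ncl had 5 probe sets and Nat10 and Eif3m 2 each, and only the brightest of each was compared. Of 19 TOR pathway genes 9 were higher (median -0.02), with the S6 kinase gene Rps6kb2 at 2.14 ± 0.68 and the TOR activator Rheb at 0.75 ± 0.26. The Rps6kb2 probe set was dim, with deposited signals of 151.9, 817.2 and 185.1 in MC and of 760.9, 870.9 and 1218.6 in CR. These overlap, and the difference rests on the low readings of MC1 and MC3.

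With age the medians of these lists were 0.01 for initiation factors (17 of 32 higher), -0.02 for elongation factors (4 of 10), -0.04 for the other oligopyrimidine transcripts (7 of 21), 0.01 for ribosome biogenesis (22 of 43) and 0.04 for the TOR pathway (10 of 19). Over all tested probe sets the median was 0.02 (14122 of 27022 higher). The examples with the smallest p were Nop56, a small nucleolar particle protein, at 1.13 ± 0.51, Brix1, a 60S assembly factor, at -0.77 ± 0.34, Eif1a at 0.71 ± 0.31 and Rptor, the scaffold of TOR complex 1, at 0.68 ± 0.29. Their adjusted limma p was 1 in each case. Rptor had 3 probe sets and Nop56, Brix1 and Eif1a 2 each, and again only the brightest was compared.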

How the data were processed

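RNA of 9 samples was measured on 1-colour Affymetrix arrays. The authors deposited linear signal intensity values per probe set, made with GCOS 1.3 per the submitters' processing notes. Which signal algorithm GCOS ran is not stated. The deposited intensity values have nearly equal trimmed means per array (2% trimmed at each end), so scaling had been applied. Probe sets were named from the platform annotation, and no member's symbol changed on update. Log2(signal + 16) was quantile normalized, probe sets under the 40th percentile of mean signal were left out, and limma 3.58.1 (R 4.3.3) fitted 3 group means with a variance trend. P-values were adjusted by Benjamini-Hochberg over all tested. Fold changes are on the log2(signal + 16) scale. The scripts were tested on simulated data. A gene was shown by its brightest probe set unless another is named. Probe sets ending in _x_at or _s_at can bind related transcripts, so members with near-identical copies are uncertain. Nothing says that pools were independent beyond their separate mice, and p-values measure the spread between these pools. The 4 arrays with a median below 734.5 form the low class.

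Named genes were those with the smallest p among non-overlapping probe sets per comparison, a fixed set of familiar genes, genes with disagreeing probe sets, and the genes with the smallest p per list. The members, lists and rules were chosen with earlier results of these data known. Rplp1 and other genes without a qualifying probe set were not used here. Alternatives covered pseudocount, filter, scaling, variance trend, array weights, groups in the fit, the replicate block, array class, each array left out and the choice of probe sets.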

Additional observations from a re-analysis of the deposited data

How the results depend on the processing

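The count of members past the threshold in CR against MC, 0 in the reported fit, was 5 with array weights (Rpl3l, Rpl39, Rps3 and 2 of the 4 Rpl41 probe sets), 4 with only CR and MC in the fit (Rpl3l, Rpl39 and the same 2 Rpl41 probe sets), from 0 to 3 with 1 array left out, and 2 without YC2 and MC3 together, which was chosen after seeing the data. These Rpl41 probe sets went in opposite directions, 1455578_x_at higher in CR and 1454639_x_at lower. In CR against YC the count of members ran from 0 to 1 with 1 array left out (1 without YC1, with 328 of all tested probe sets against 0), and in MC against YC it was 0 under every alternative run. Over all tested probe sets the array weights called 3397 and the fit of the compared groups 1846, against 25. Leaving out an array moved that count to 1147 (YC2, with 3 members), 209 (YC1, 1 member), 49 (MC2, 1 member), 33 (YC3, 1 member), 2 (CR1) or 0 (MC1, MC3, CR2 or CR3), and to 615 without YC2 and MC3. The count of members with an interval within 2-fold, 73 in MC against YC, 65 in CR against MC and 68 in CR against YC, fell to 46, 27 and 32 with the table as deposited and to 3, 2 and 2 with arrays centred on their medians, both added for this count after seeing the data. The median change of the members with arrays centred on their medians was 0.88 in CR against MC and 0.60 in CR against YC. It changed sign with the array class as a term (-0.13, -0.08 and, in MC against YC, 0.02) and with the array median as a covariate. Within the 5 arrays of high median, MC minus YC was 0.02, and within the 4 of low median CR minus YC was -0.08. Each is the class-term value itself, and the latter has YC1 as its single young control. CR against MC could not be compared within a class, since none holds both. Normalization itself moved the median of all tested probe sets in CR against MC from -0.05 to 0.08. Same-numbered samples deviated with correlations from -0.29 to 0.27, so the numbers gave no sign of pairing, and with the replicate block 0 members passed in any comparison, the median of CR against MC was 0.12 and Rpl3l had an adjusted limma p of 0.107. Of 126 changes of named members 41 kept their sign in every alternative. After quantile normalization dim probe sets limit what can be seen: only 5 of 21 members under a mean log2 signal of 13 had an interval within 2-fold in CR against MC. With the other 2 scalings the limit reached bright members too, since only 27 or 2 of all 87 had such an interval.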
